A study of Mus musculus with 9 samples.

Results

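The genes described here encode the proteins of the cytosolic ribosome. They were chosen by name: Rpsa, Rplp0, Rplp1, Rplp2, or a symbol that starts with Rpl or Rps and a digit, without the S6 kinases and without names that hold -ps. Of the 34745 genes in the count table, 88 carried such a name, and 85 of them had at least 10 counts in 3 or more libraries. The 3 left out were Rpl10l with 0 counts in all 9 libraries, Rpl39l with 4 counts in all, and Rpl3l with 12. By role the 85 genes were 43 proteins of the large subunit, 3 proteins of its P stalk, 31 proteins of the small subunit, 4 paralogs (Rps27l, Rpl22l1, Rpl36al and Rps4l), 2 retrocopies (Rps27rt and Rpl37rt) and 2 genes whose products are not proteins of the mature ribosome (Rps19bp1 and Rpl7l1). The rule on names uses no measured value, but it was set with earlier results of these data known. All 85 genes also passed the filter of the tests on low counts.

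The series set livers of mice with chemically induced fibrosis, with and without sulodexide, against control livers, to ask what sulodexide does to the fibrosis. Sulodexide is a mixture of glycosaminoglycans related to heparin, and thioacetamide (TAA) is a compound that hepatocytes turn into toxic products. All mice were C57BL/6. The TAA + sulodexide group drank TAA at 400 mg/L for 16 weeks and was given sulodexide from week 13 for 4 weeks. The TAA + vehicle group had the same TAA course and was given vehicle over the same 4 weeks, and the control group had no TAA. Each group had 3 libraries of liver mRNA. The labels give no age or sex of the animals, and do not state whether the controls were given vehicle or whether each library came from a separate mouse. The p-values therefore measure the spread between these libraries, which may in part be technical.

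A ribosome is built from ribosomal RNA and a fixed set of proteins, with a large subunit that joins amino acids and a small subunit that reads the mRNA. The P stalk, made of Rplp0 with Rplp1 and Rplp2, is the arm of the large subunit that binds the elongation factors. In vertebrates most ribosomal protein mRNAs begin at a C followed by a run of pyrimidines, the 5′ terminal oligopyrimidine (TOP) tract, through which growth signals by way of mTORC1 set how strongly they are translated. Liver cells carry many ribosomes because they secrete most plasma proteins. Ribosomal protein genes have also left many processed copies across the mouse genome, and these copies matter for how reads are assigned.

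To show what stands at the start of the genes with the largest rises in vehicle over control, 30 bases around annotated starts are printed for the 7 members with the largest rises among those with a window in the table used, with 10 bases before the start and 20 from it. Rps19 has 3 annotated starts, and all are shown. They are RefSeq sequences of build GRCm38.p6 on the strand of the gene, 5′ to 3′, and the capitals mark the longest run of C and T that opens with C.
Rps12, chr10:23787190-23787219, minus strand: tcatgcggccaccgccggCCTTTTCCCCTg
Rpsa, chr9:120127756-120127785, plus strand: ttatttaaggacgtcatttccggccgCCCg
Rpl28, chr7:4792955-4792984, plus strand: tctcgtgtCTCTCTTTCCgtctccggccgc
Rplp0, chr5:115559457-115559486, plus strand: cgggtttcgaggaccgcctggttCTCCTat
Rps19, chr7:24884582-24884611, plus strand: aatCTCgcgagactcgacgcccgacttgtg
Rps19, chr7:24884666-24884695, plus strand: cggtgagtgagggCTCTgggtcgcggctgt
Rps19, chr7:24884903-24884932, plus strand: agcggggtgtggagggCTCTCCCacgcggt
Rpl12, chr2:32961702-32961731, plus strand: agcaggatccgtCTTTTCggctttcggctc
Rpl41, chr10:128549149-128549178, minus strand: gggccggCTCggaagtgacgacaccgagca
The run was 11 bases long in Rps12, 10 in Rpl28, 6 in Rpl12, 5 in Rplp0, 3 in Rpsa and Rpl41, and 3, 4 and 7 at the starts of Rps19. Among the 64 members with a window, 37.5% held a run of at least 8 bases, against 10.1% of all 27025 genes with a window. A run of at least 5 bases was held by 64.1% of the members and 39.6% of all genes. Of the members with a window, 9 of the 20 that were called higher in vehicle over control held a run of at least 8 bases, against 15 of the 44 that were not called. Only the strand of the gene was searched, and a run is a description of the letters, which says nothing of how the mRNA is translated.

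The share of all gene counts that fell on the 85 genes was higher in both TAA groups than in control, in every library. It was 0.971%, 0.986% and 1.28% in the sulodexide libraries, 1.23%, 1.21% and 1.31% in the vehicle libraries, and 0.632%, 0.709% and 0.631% in the control libraries. The lowest TAA library thus lay above the highest control library, while 1 of the sulodexide libraries lay within the vehicle range. The mean share was 1.08 ± 0.177% with sulodexide, 1.25 ± 0.049% with vehicle and 0.657 ± 0.0451% in control (SD, n = 3 each). These means give ratios of 1.90 for vehicle over control, 1.64 for sulodexide over control and 0.863 for sulodexide over vehicle. In bulk tissue, a change in the number of cells of a type and a change in RNA per cell cannot be told apart.

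**Figure D1:**
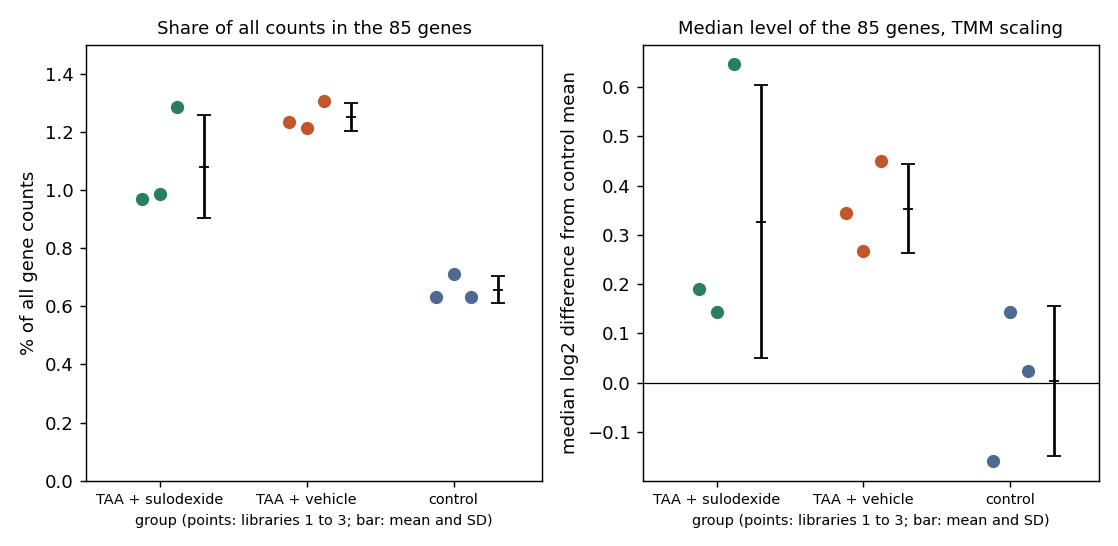
Left, the percent of all gene counts that fell on the 85 genes in each of the 9 libraries. Right, the median over the 85 genes of the log2 difference from the control mean after TMM scaling, with bars for the mean and SD of 3 libraries. On the left the 6 TAA libraries sit between 0.971% and 1.31%, all above the control libraries, and on the right control library 2, at 0.14, overlaps sulodexide library 2.

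The libraries themselves differed in make-up, which bears on every level set between them. Total counts ran from 15031275 to 16655951 with sulodexide, from 14386196 to 15959865 with vehicle and from 13803697 to 14974495 in control. Mitochondrially encoded mRNAs took 6.83 ± 0.891% of the counts with sulodexide, 5.76 ± 0.886% with vehicle and 10.5 ± 0.522% in control (SD, n = 3 each). TMM factors, which scale libraries so that most genes do not change, were 1.01 to 1.04 with sulodexide, 1.08 to 1.18 with vehicle and 0.821 to 0.919 in control. Over the hepatocyte markers the summed level was 106900 to 129700 CPM, the count scaled to a common library size by the TMM factors, with sulodexide, 96800 to 118700 with vehicle and 113800 to 142700 in control. Of the 12 listed hepatocyte markers 11 were in the table and none was at 0. With mitochondrially encoded genes left out of the total, the share of the 85 genes was 1.16% with sulodexide, 1.33% with vehicle and 0.734% in control.

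In the vehicle livers, 29 of the 85 genes rose over control and 0 fell, at an adjusted p below 0.05 in edgeR's quasi-likelihood test with Benjamini-Hochberg adjustment over all 13701 genes tested. That is 34.1% of the members, where 23.1% of all genes tested were called higher and 20.4% were called lower. The median log2 change of the 85 genes was 0.32, with a range of -0.40 to 1.48, beside a median of 0.01 over all genes. A positive change was fitted for 72 genes and a negative one for 13. In 36 genes all vehicle libraries lay above all control libraries, as in 29.4% of all genes, and in 1 gene, Rpl7l1, they lay below.

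The 3 P stalk genes all rose. Rplp0, the stalk base that anchors the others, had 692, 754 and 804 CPM in vehicle livers, against 350, 383 and 343 CPM in control livers. The ranges are far apart, and the log2 change was 1.06 with an SE of 0.11 and an adjusted p of 4.985e-05. Rplp1, one of the acidic proteins that recruit the elongation factors, had 440, 471 and 504 CPM with vehicle, against 197, 243 and 202 CPM in control. Its log2 change was 1.14 with an SE of 0.17 and an adjusted p of 0.00039. Rplp2, its partner, had 110, 107 and 131 CPM with vehicle, against 63.8, 77.9 and 67.9 CPM in control. It rose less, by a log2 change of 0.73 with an SE of 0.14 and an adjusted p of 0.00155.

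Of the 43 other large subunit genes, 12 rose and 0 fell. Rpl28, with the long pyrimidine run printed above, had the largest rise among them. It had 6.45, 6.14 and 7.25 CPM in vehicle livers, against 2.54, 1.89 and 4.81 CPM in control livers. The 3 vehicle libraries lay above control, where the third library stood apart from the other two, and the log2 change was 1.10 with an SE of 0.29 and an adjusted p of 0.0103. Rpl28 is a low-count gene here, with 100 to 125 counts per vehicle library and 22 to 59 per control library. The others had log2 changes of 0.49 to 1.01, and among them were Rpl6, Rpl8, Rpl10, Rpl12, Rpl13a, Rpl19, Rpl21, Rpl29, Rpl32 and Rpl41. Rpl41 encodes the shortest ribosomal protein, and Rpl10 is needed for the last step of large subunit maturation. Only 8.4% of the 100-base stretches of Rpl10 are found in no other annotated gene, so its level is uncertain too. The 31 genes of the subunit that were not called included Rpl5 and Rpl11, whose proteins bind Mdm2 when ribosome assembly fails. These results do not show that either gene was unchanged. Rpl11 had only 16 to 60 counts per library, and its log2 change of 0.55 had an interval of -0.24 to 1.34. The level of Rpl5 is uncertain, since only 8.9% of its 100-base stretches are found in no other annotated gene.

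Of the 31 small subunit genes, 14 rose and 0 fell. Rps12, a protein of the beak of the subunit, had the largest change of all 85 genes. It had 21.7, 22.2 and 15.3 CPM in vehicle livers, against 6.90, 6.28 and 7.99 CPM in control livers. The ranges are well apart, and the log2 change was 1.48 with an SE of 0.19 and an adjusted p of 0.000146. The level of Rps12 is uncertain, since only 18.4% of its 100-base stretches are found in no other annotated gene. It shares a stretch of 50 bases with 22 pseudogenes. Rpsa, also known as the laminin receptor precursor, is the most heavily counted of the genes that rose. It had 849, 966 and 1054 CPM with vehicle, against 374, 468 and 415 CPM in control, a log2 change of 1.19 with an SE of 0.16 and an adjusted p of 0.000215. Rps19, which small subunit maturation needs and which is mutated in human Diamond-Blackfan anaemia, had 103, 107 and 106 CPM with vehicle, against 45.8, 55.9 and 50.3 CPM in control. The vehicle libraries were close to each other, and the adjusted p was 0.000172 with a fold change of 2.08.

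Rps6, the ribosomal substrate of the S6 kinases downstream of mTORC1, rose with low counts and a wide spread. It had 4.41, 4.36 and 2.49 CPM with vehicle, against 2.11, 1.89 and 2.12 CPM in control, and its log2 change of 0.88 had an SE of 0.29 and an adjusted p of 0.0281. Vehicle library 3 lay close to the control range, and the call was lost without vehicle library 1 or 2 or any of the control libraries. Only 16.4% of the 100-base stretches of Rps6 are found in no other annotated gene, so its level is uncertain. The other small subunit genes that rose had log2 changes of 0.58 to 0.92, and among them were Rps2, Rps7, Rps10, Rps15a, Rps16, Rps26, Rps27a and Rps28. Rps27a encodes a fusion of ubiquitin with a ribosomal protein.

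**Figure D2:**
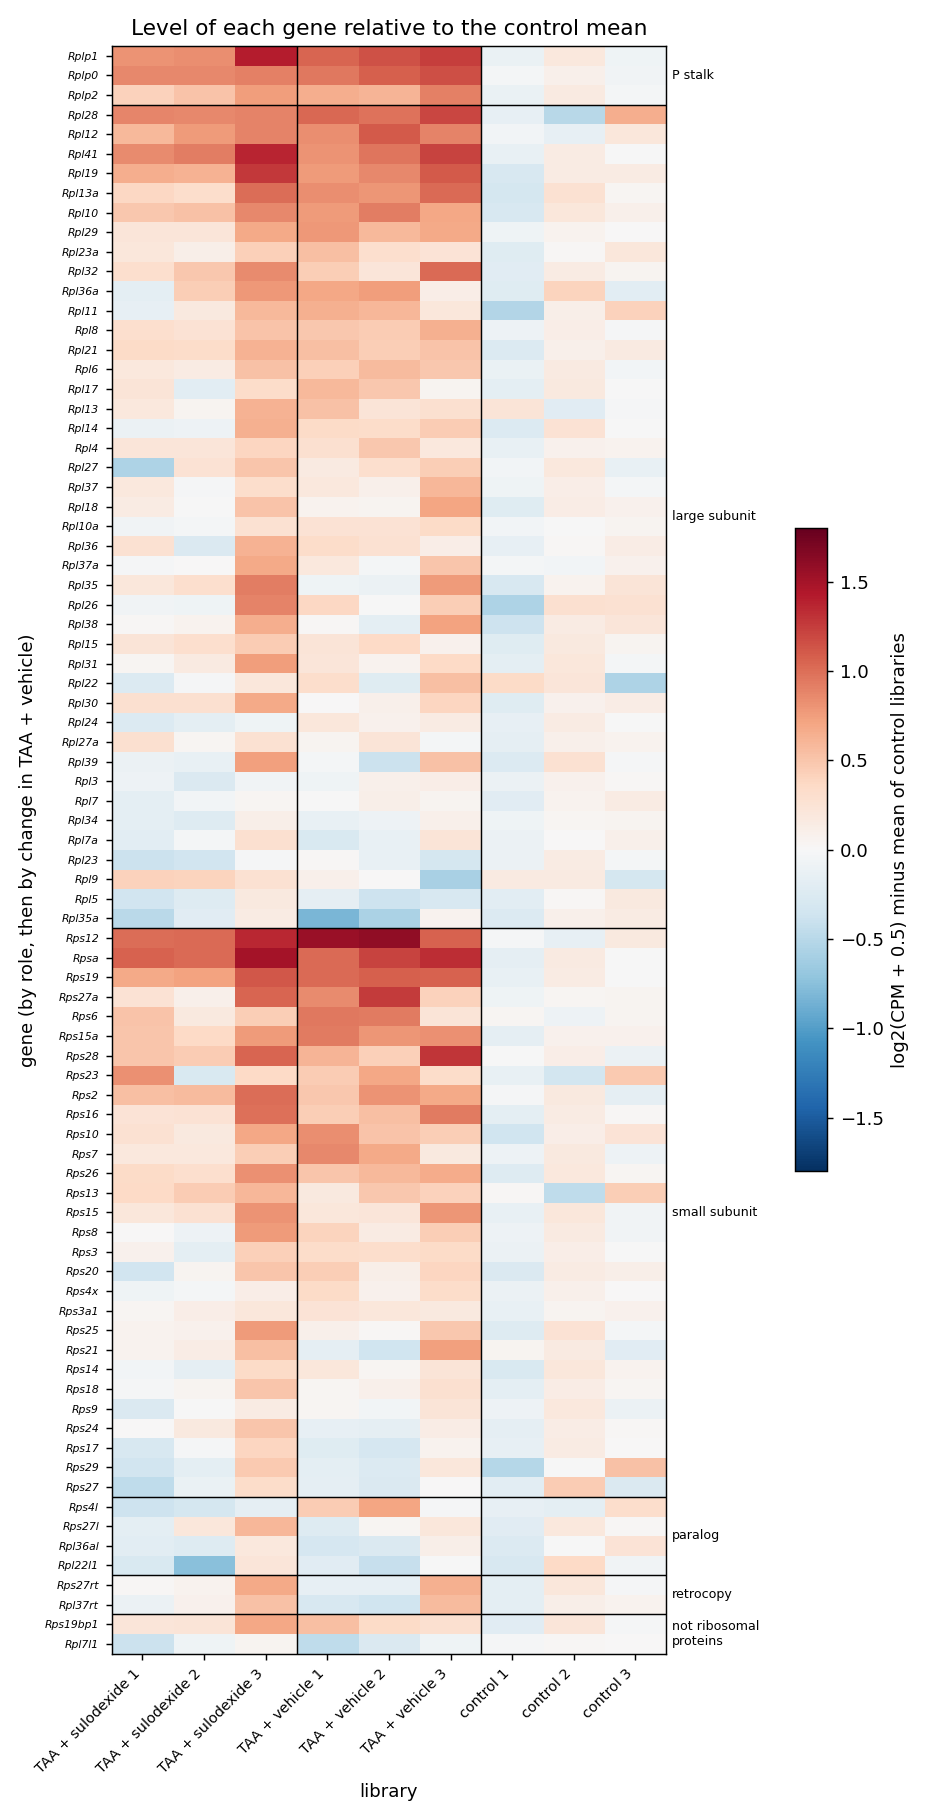
Each row is a ribosomal protein gene, with a few left out, ordered by role and then by the fitted change of vehicle over control, and each column is a library. Colours give log2(CPM + 0.5) minus the mean of the 3 control libraries, red above and blue below. The P stalk rows are red in all 6 TAA libraries, sulodexide library 3 is redder than its groupmates along nearly its whole length, and control library 1 is pale blue in most rows.

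None of the 4 paralogs, 2 retrocopies and 2 further genes passed the test in any of the 3 comparisons. Rps27l, a paralog of Rps27 and a p53 target, had 125, 162 and 214 CPM with sulodexide, 121, 145 and 163 CPM with vehicle, and 122, 161 and 143 CPM in control. The groups overlap, and for vehicle over control the log2 change was 0.01 with a 95% interval of -0.42 to 0.43 and an adjusted p of 0.978. On the list of p53 targets and genes that sense free ribosomal proteins, 13 of 14 tested genes rose over the same contrast and 1 fell. Over all genes, 23.1% were called higher there and 20.4% lower. In sulodexide livers 11 of the 14 rose over control and 0 fell, where 11.2% of all genes were called higher and 11.4% lower. Between sulodexide and vehicle 0 of the 14 were called. Phlda3 had 34.5 to 39.0 CPM with vehicle, against 0.516 to 0.652 CPM in control, and Ccng1 had 128.5 to 162.6 CPM with vehicle, against 26.8 to 32.1 CPM in control. The log2 changes of Rpl22l1, Rpl36al and Rpl7l1 were -0.23, -0.16 and -0.26, with intervals that include 0, and all 3 turned positive when libraries were scaled by total counts. Rpl22l1 and Rpl36al are paralogs of Rpl22 and Rpl36a, while Rpl7l1, which resembles Rpl7, takes part in ribosome assembly.

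The ratio of a paralog to its canonical gene within a library does not depend on scaling. Ratios were compared over 5 pairs, with Rpl7l1 over Rpl7 among them, and 3 comparisons, 15 in all. An exact two-sided permutation test was used, for which 0.1 is the smallest p that 3 against 3 libraries allow. No ratio could therefore pass at the threshold used for calls, and the test cannot decide whether any ratio changed. The ratio of Rps27l over Rps27 is also uncertain, since Rps27 had 15 to 32 counts per library. The smallest p adjusted over the 15 was 0.6. Per length, Rps4l lay below Rps4x, a core small subunit protein, by a log2 ratio of -3.22 ± 0.00838 with sulodexide, -2.80 ± 0.503 with vehicle and -2.93 ± 0.293 in control (SD, n = 3 each). The sulodexide libraries lay below every control library and overlapped the vehicle range.

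Levels per length spanned more than the changes did. Mean FPKM in vehicle livers ran from 0.152 for Rpl9 to 1076 for Rplp1, a 7084-fold range, with a median of 29.6. This range depends on the lengths used as well as on the counts. The length implied by the deposited counts and FPKM was 10922 bases for Rpl9, whose GENCODE M21 transcript has 738. For Rplp1 these lengths were 495 and 499. Among the genes with the highest mean over all libraries were Rplp1, Rpl8, Rpl13a, Rpsa and Rps15. Rpl8, a protein near the catalytic centre of the large subunit, had 449, 435 and 510 FPKM with sulodexide, 584, 549 and 593 FPKM with vehicle, and 302, 321 and 285 FPKM in control. Rps15, which was not called in vehicle over control, had 385, 402 and 569 FPKM with sulodexide, 436, 422 and 600 FPKM with vehicle, and 269, 310 and 252 FPKM in control. The highest control library lay below every vehicle library on this scale, and not on the TMM scale. On the TMM scale the log2 change of Rps15 for vehicle over control was 0.42 with an adjusted p of 0.116. Of the 17 genes with a mean over 100 FPKM 11 rose in vehicle livers, of the 38 between 10 and 100 FPKM 11 rose, and of the 30 below 10 FPKM 7 rose. Over all genes tested 23.1% were called higher. That share is not split by level here, so a trend with level cannot be read as particular to these genes.

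The levels were set beside the uniqueness of the transcripts, since reads from copies with the same sequence cannot be told apart. A stretch of 50 bases was shared with at least 1 annotated pseudogene by 83 of the 85 genes, with a median of 8 pseudogenes per gene and up to 120 for Rpl7a. The median of the mean FPKM was 3.52 in the 3 genes with under 10% of unique 100-base stretches, 15.2 in the 33 genes with 10 to 50%, 43.9 in the 34 genes with 50 to 90%, and 36.2 in the 15 genes above. Across the 85 genes Spearman's rho between the mean FPKM and the unique share was 0.371. This is a description over genes, which share libraries and sequence families, and genes that share reads with a near-identical copy are uncertain in level. FPKM also depends on the length implied for each gene, whose part in this was not tested. In 12 genes an exon also overlaps a gene on the opposite strand and in 5 genes one on the same strand, and the strand setting of the counting is not stated for these files. Rpl12, Rpl28, Rpl32 and Rps10 overlap a gene on the opposite strand and were called in vehicle over control.

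**Figure D3:**
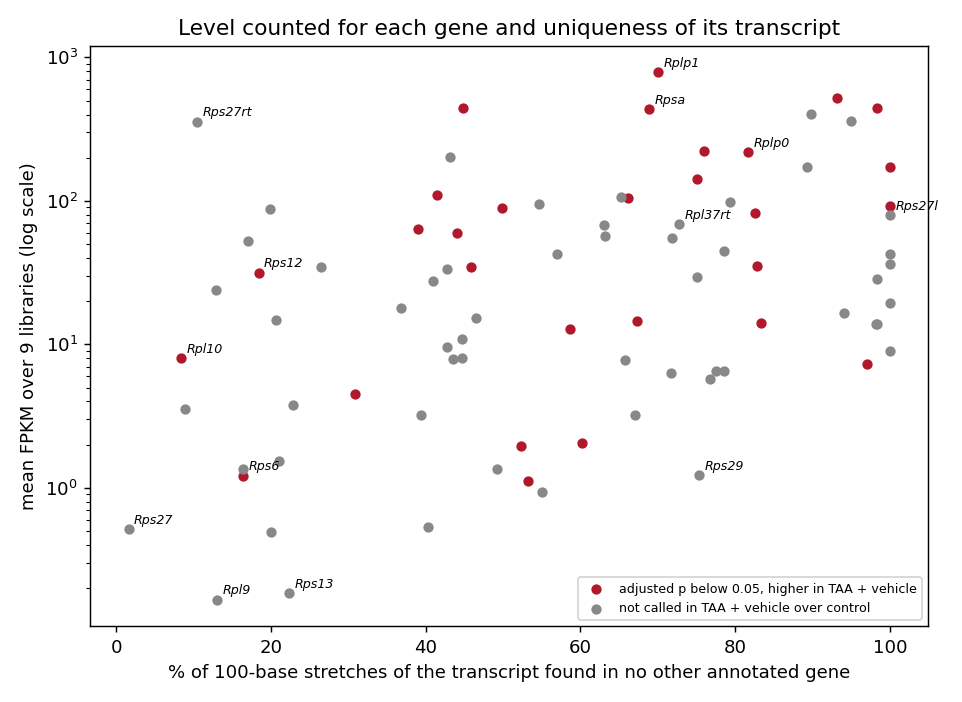
Each point is 1 of the 85 genes, with the percent of 100-base stretches of its GENCODE M21 transcript found in no other annotated gene on the x axis and the mean FPKM over 9 libraries on a log y axis. Red points are the 29 genes called higher in vehicle over control. Rps27, at 1.6% unique, lies far below its retrocopy Rps27rt, at 10.5% unique.

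Rps27, a zinc finger protein of the small subunit, shows the split most plainly. Its coding sequence was compared with those of the intronless copy Rps27rt and the paralog Rps27l in GENCODE M21, all 252 bases long. The first 150 bases from the start codon are printed to show the identity, and capitals mark bases that differ from Rps27.
Rps27, chr3:90212522-90213651, minus strand: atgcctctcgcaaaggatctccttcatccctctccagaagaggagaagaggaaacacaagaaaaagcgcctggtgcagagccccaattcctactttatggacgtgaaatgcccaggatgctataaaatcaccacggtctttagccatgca
Rps27rt, chr9:114982366-114982739, minus strand: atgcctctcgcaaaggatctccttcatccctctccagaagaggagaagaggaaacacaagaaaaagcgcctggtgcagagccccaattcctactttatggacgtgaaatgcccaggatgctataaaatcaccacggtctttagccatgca
Rps27l, chr9:66946086-66949516, plus strand: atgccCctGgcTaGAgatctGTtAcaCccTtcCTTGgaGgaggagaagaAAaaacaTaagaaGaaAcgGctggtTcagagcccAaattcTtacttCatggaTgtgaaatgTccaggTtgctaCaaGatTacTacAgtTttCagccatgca
Rps27 and Rps27rt did not differ at any of the 252 coding bases, and Rps27l differed at 60, an identity of 76.2%. The counts of the identical genes were far apart. Rps27 had 1.01, 1.39 and 2.10 CPM with sulodexide, 1.34, 1.23 and 1.57 CPM with vehicle, and 1.31, 2.32 and 1.22 CPM in control. Rps27rt had 118, 122 and 189 CPM with sulodexide, 106, 106 and 183 CPM with vehicle, and 103, 135 and 115 CPM in control. How the counts were divided between such copies was not tested, and neither gene was called in any comparison.

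Genes of the same family with -ps names were left out of the 85 by the rule, but 10 of the 21 in the table had enough counts to test. They were named after their values were seen. Rpl9-ps6 had 105, 104 and 136 CPM with sulodexide, 125, 134 and 122 CPM with vehicle, and 74.2, 84.7 and 68.5 CPM in control, while its parent Rpl9 had 0.928 to 2.37 CPM over all libraries. Rpl23a-ps3 had 112 to 171 CPM with sulodexide, 115 to 131 CPM with vehicle and 77.5 to 97.1 CPM in control, while Rpl23a itself had 0.363 to 0.967 CPM. Rpl9-ps6 rose in vehicle livers by 0.74 on the log2 scale with an SE of 0.14 and an adjusted p of 0.00131, while Rpl9 was not called. All -ps genes together took 0.0511% of the counts with sulodexide, 0.0580% with vehicle and 0.0312% in control.

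In the sulodexide livers, 17 of the 85 genes rose over control and 0 fell, or 20% of the members, where 11.2% of all genes tested were called higher and 11.4% were called lower. The median log2 change of the members was 0.29, beside 0.02 over all genes, and in 32 genes all sulodexide libraries lay above all control libraries, as in 21.4% of all genes. The 17 were the 3 P stalk genes, 6 of the large subunit (Rpl10, Rpl12, Rpl19, Rpl21, Rpl28 and Rpl41) and 8 of the small subunit (among them Rps2, Rps12, Rps15a, Rps19, Rps26 and Rpsa). All 17 were also called in vehicle over control, and they were 58.6% of the 29 called there. Both comparisons use the same control libraries.

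Rpsa had 871, 844 and 1180 CPM with sulodexide, against 374, 468 and 415 CPM in control, a log2 change of 1.20 with an SE of 0.16 and an adjusted p of 0.00056. Rplp0 had 653, 651 and 672 CPM with sulodexide, against 350, 383 and 343 CPM in control, a log2 change of 0.88 with an adjusted p of 0.000441. The values of Rplp0 were close to each other within the group, while those of Rpsa were higher in sulodexide library 3 than in the other two. Rpl41 had 278, 290 and 396 CPM with sulodexide, against 139, 170 and 153 CPM in control, a fold change of 2.09 with an adjusted p of 0.00132. Rplp1 and Rplp2 rose by 1.04 and 0.57 on the log2 scale, with adjusted p-values of 0.00171 and 0.0129, and the call of Rplp2 was lost without control library 1 or 3. Rps12, with 14.6, 14.8 and 18.9 CPM with sulodexide, had a fold change of 2.27 over control and an adjusted p of 0.00152. Rps6, at 3.14, 2.38 and 2.96 CPM with sulodexide, was not called, with a log2 change of 0.47 and an adjusted p of 0.27.

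**Figure D4:**
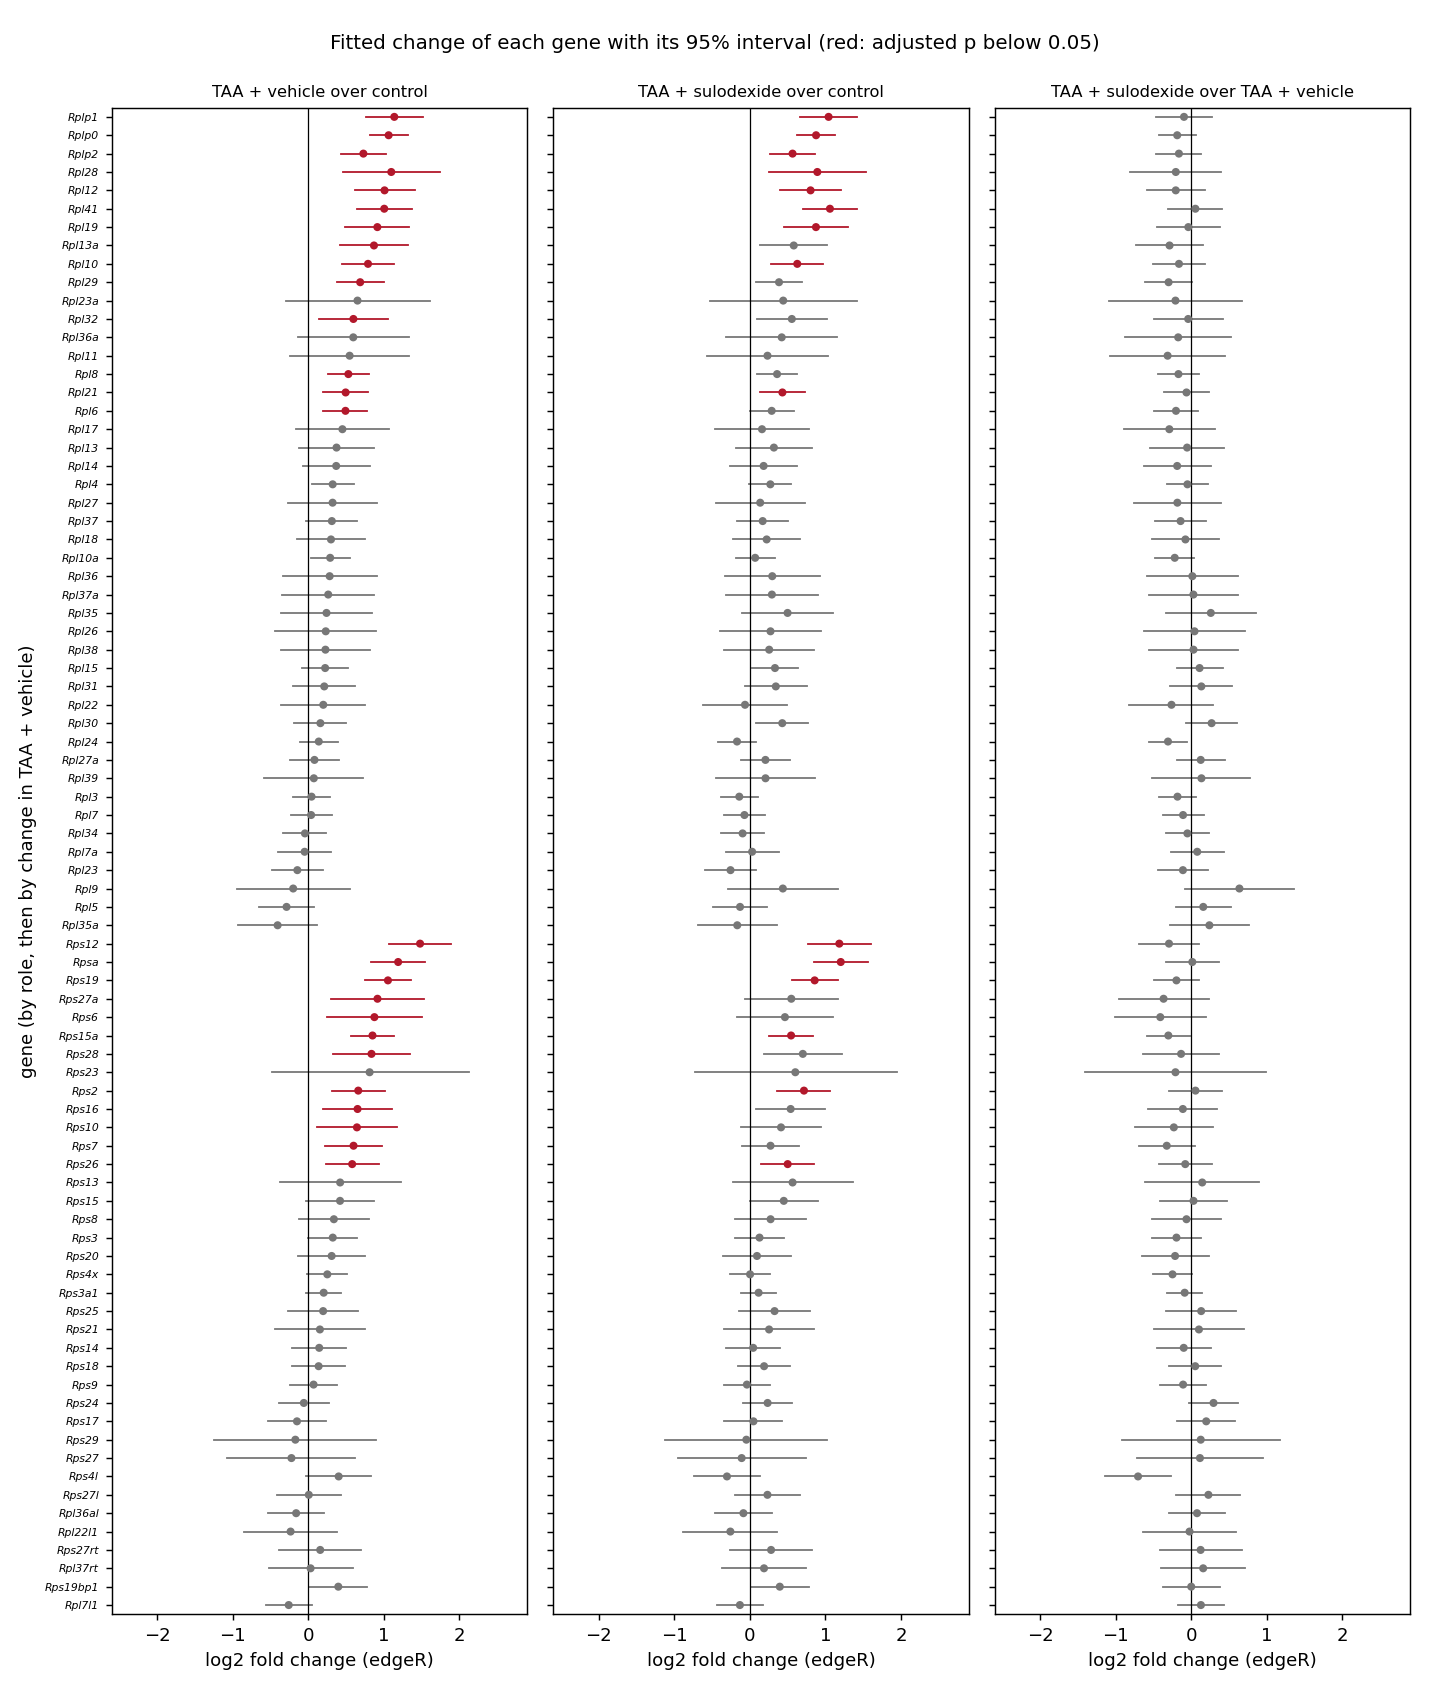
Fitted log2 fold changes of the ribosomal protein genes, with the same few left out, and their 95% intervals, by role and then by the change of vehicle over control, for vehicle over control, sulodexide over control and sulodexide over vehicle. Red marks an adjusted p below 0.05. Red genes are most frequent in the left panel and 0 are on the right, where the largest fall, that of Rps4l, is -0.70.

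Between sulodexide and vehicle livers, 0 of the 85 genes were called by edgeR in either direction, where 1.39% of all genes tested were called higher and 3.41% lower. At an unadjusted p below 0.05, 0 members were higher and 3 were lower, and DESeq2 called 1 lower. The median log2 change was -0.09, beside 0.02 over all genes, with 31 genes positive and 54 negative. All sulodexide libraries lay above all vehicle libraries in 1 gene, as in 11.1% of all genes, and below in 5 genes, as in 13.1% of all genes. The 95% interval lay wholly within 0.5 log2 units of 0 in 33 of the 85 genes and within 1 log2 unit in 78. In 39 genes it reached below -0.5 and in 25 above 0.5.

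Rps4l had the smallest adjusted p of the 85 genes in this comparison. It had 17.1, 17.8 and 19.8 CPM with sulodexide, against 30.6, 36.8 and 21.8 CPM with vehicle. The sulodexide libraries lay below all vehicle libraries, of which the third came close. The log2 change was -0.70 with an SE of 0.20 and an adjusted p of 0.069 by edgeR, while DESeq2 gave an adjusted p of 0.0229. The P stalk genes had log2 changes of -0.19 for Rplp0, -0.10 for Rplp1 and -0.16 for Rplp2, with adjusted p-values of 0.388, 0.80 and 0.54. Rplp0 was lower in all 3 sulodexide libraries than in any vehicle library. Rpsa, with a log2 change of 0.01, and Rps6, with -0.41, had adjusted p-values of 0.974 and 0.441. The log2 change of Rps4l in vehicle over control was 0.40 with an adjusted p of 0.12, and it was called higher there with total counts and without vehicle library 3. The direction of Rpsa turns with the scaling: it was -0.12 when libraries were scaled by total counts.

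Within a group, the 85 genes deviated together. After TMM scaling, 84 of the 85 genes were higher in sulodexide library 3 than the mean of its groupmates, a share of 98.8% where 50.7% of all genes tested were higher, with a median log2 deviation of 0.46. In the other sulodexide libraries 9 and 9 genes were above their groupmates. Among the vehicle libraries 30, 29 and 60 genes were above, and among the controls 6, 74 and 50, with control library 1 lowest at a median log2 deviation of -0.24. The deviations were set beside the length implied by the deposited counts and FPKM, which for some genes is far above that of the annotated transcript. In sulodexide library 3, Spearman's rho between the deviation and this length over the 85 genes was -0.29. It was 0.34 in sulodexide library 2, 0.11 in sulodexide library 1, and -0.18 to 0.17 in the vehicle and control libraries. Each deviation is taken from the groupmates, so the values within a group are tied to each other. RNA quality was not part of the files used here, and the source of these deviations was not tested.

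Those libraries moved the results for the whole family. Without sulodexide library 3, the median log2 change of sulodexide over control was 0.08 in place of 0.29, that of sulodexide over vehicle was -0.24 in place of -0.09, and 14 genes were called higher over control. Without sulodexide library 1 or 2 the median of sulodexide over vehicle was -0.0038 and 0.00097. Without control library 1, 20 genes rose in vehicle and 10 in sulodexide livers over control, and without control library 3 the counts were 22 and 13. Calls over all genes fell as well. With all libraries 23.1% and 11.2% of all genes were called higher in these comparisons. The shares were 18.8% and 7.15% without control library 1, and 18.8% and 6.76% without control library 3. Without sulodexide library 3, 10% were called higher in sulodexide over control. Called higher in vehicle livers with each library left out in turn were 19 genes, among them Rplp0, Rplp1, Rplp2, Rpl8, Rpl10, Rpl12, Rpl13a, Rpl19, Rpl28, Rpl29, Rpl41, Rps2, Rps12, Rps15a, Rps19 and Rpsa. For sulodexide over control there were 10 such genes, among them Rplp0, Rplp1, Rpl12, Rpl19, Rpl41, Rps2, Rps12, Rps19 and Rpsa.

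How the libraries were scaled changed the number of calls more than any left-out library did. Scaled by total counts alone, 61 of the 85 genes rose in vehicle livers over control, where 42% of all genes tested were called higher. The median of the 85 genes was then 0.72 and that of all genes 0.41, so that the members lay 0.32 above all genes, as they did by 0.31 with TMM. In sulodexide livers 38 genes rose over control with total counts, where 24.2% of all genes were called higher, with a median of 0.55 beside 0.27 over all genes. The share of higher among all calls in vehicle over control was 53.1% with TMM and 83.2% with total counts, and in sulodexide over control it was 49.6% and 81.3%. Between sulodexide and vehicle the median of the members was -0.23 with total counts, beside -0.12 over all genes, and 2 members, Rps4l and Rpl24, were called lower, where 5.06% of all genes were. The TMM factors, which are lowest in control, carry this difference.

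**Figure D5:**
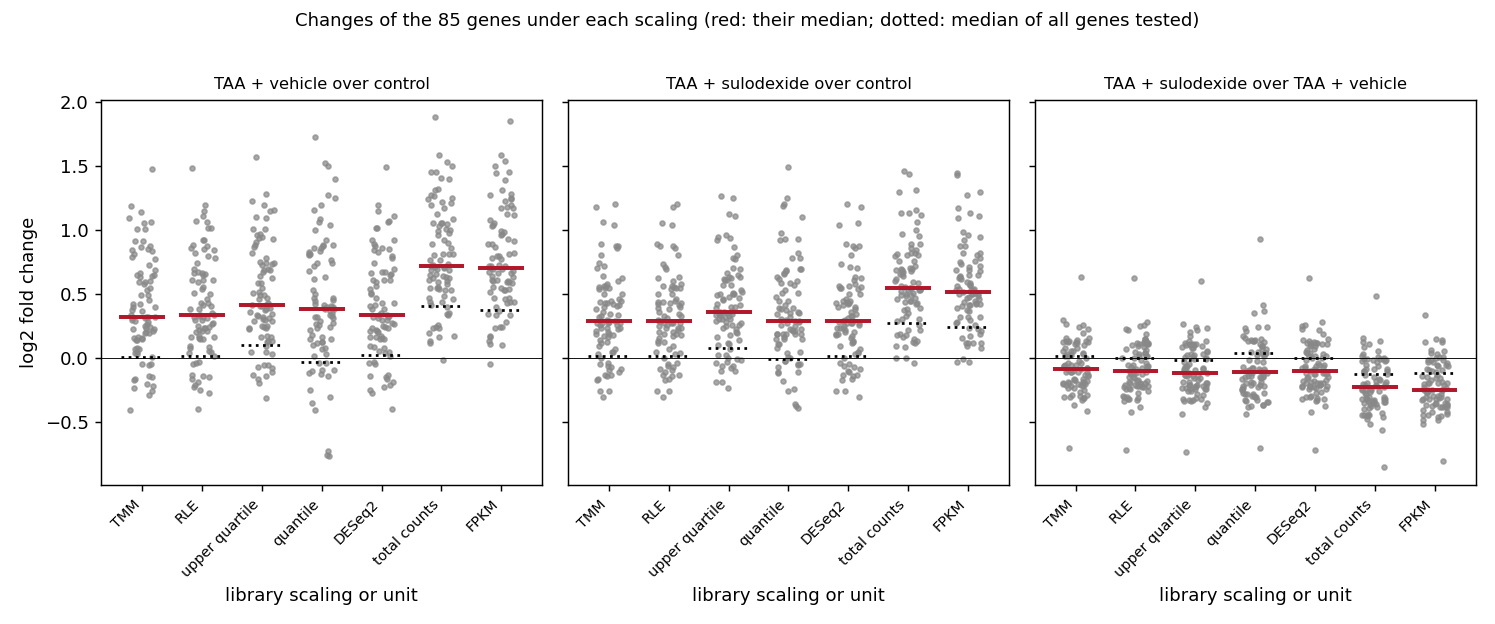
Each grey point is the log2 fold change of 1 of the 85 genes under the scaling or unit on the x axis, in the 3 comparisons. The red line is the median of the 85 genes and the dotted line that of all genes tested. In vehicle over control both lines lie higher with total counts, at 0.72 and 0.41, than with TMM, at 0.32 and 0.01, while the gap between them is 0.32 and 0.31.

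Most other scalings kept close to TMM. With RLE, upper-quartile and quantile scaling, with DESeq2, and with TMM factors taken without ribosomal protein and mitochondrially encoded genes, 29 to 35 members rose in vehicle livers and 17 to 25 in sulodexide livers over control. Over all genes these settings called 20.1% to 26.5% higher in vehicle livers and 10.1% to 13.1% in sulodexide livers. Quantile normalization gave the most member calls, 35 and 25, where 20.1% and 10.1% of all genes were called higher. With it the members lay 0.42 above all genes in vehicle over control, and 0.31 with TMM. Of the 29 calls in vehicle livers 27 were made under every scaling, and the 2 others were Rps6 and Rps10, lost with quantile normalization. Of the 17 calls in sulodexide livers 16 were made under every scaling, with Rpl28 the exception.

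The ratio of large to small subunit genes is taken within a library and is free of scaling. The summed FPKM of the 46 large subunit and P stalk genes over that of the 31 small subunit genes was 1.21, 1.20 and 1.16 with sulodexide, 1.295, 1.28 and 1.24 with vehicle, and 1.18, 1.17 and 1.21 in control. The vehicle libraries lay above all others, while the sulodexide and control libraries overlapped. The few most abundant genes weigh most in these sums.

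For genes that work with the ribosome, the balance of calls turned on the scaling, as it did over all genes. Each count is given with TMM unless total counts are named. Of 112 tested ribosome biogenesis factors, 18 rose and 9 fell in vehicle livers over control, with a median log2 change of 0.10, where 23.1% of all genes were called higher and 20.4% lower. In sulodexide livers 10 rose and 1 fell over control, where 11.2% of all genes were called higher and 11.4% lower. With total counts 66 of the 112 rose and 0 fell in vehicle livers, with a median of 0.49 where that of all genes was 0.41, and 46 rose and 0 fell in sulodexide livers. That scaling called 42% of all genes higher in vehicle livers and 24.2% in sulodexide livers. Nob1, the nuclease that completes the small subunit RNA, had 22.6, 21.8 and 21.8 CPM with vehicle, against 10.75, 13.77 and 15.01 CPM in control, and rose with an adjusted p of 0.00222. Polr1e, a subunit of RNA polymerase I, which makes ribosomal RNA, had 11.3, 12.8 and 10.9 CPM with vehicle, against 5.67, 6.97 and 6.44 CPM in control, and rose with an adjusted p of 0.000997. Nop16 and Utp6, which act in early assembly, fell with log2 changes of -0.68 and -0.58, and neither was called with total counts. Between sulodexide and vehicle 1 factor, Utp3, rose and 0 fell, and the call of Utp3 was lost when any library was left out except control library 3.

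Of 37 translation initiation factors, 8 rose and 7 fell in vehicle livers over control, and 1 rose and 2 fell in sulodexide livers. Over all genes, 23.1% were called higher and 20.4% lower in vehicle livers, and 11.2% and 11.4% in sulodexide livers. With total counts 18 rose and 1 fell in vehicle livers, and 15 rose and 0 fell in sulodexide livers. The shares of all genes called higher were then 42% and 24.2%. Eif6, which keeps free large subunits from joining small ones, had 77.0, 59.0 and 65.2 CPM with sulodexide, 114, 93.5 and 89.9 CPM with vehicle, and 47.7, 50.5 and 44.3 CPM in control. The 3 groups did not overlap. Eif6 rose in vehicle over control by 1.06 on the log2 scale with an adjusted p of 0.000168, and was lower with sulodexide than with vehicle, with a log2 change of -0.56 and an adjusted p of 0.0411. The second call was lost without sulodexide library 2 or 3, vehicle library 1 or 3, or any of the control libraries, with changes of -0.45 to -0.63. Eif4a2, an RNA helicase that opens mRNA leaders, fell in vehicle livers by 0.95 on the log2 scale with an adjusted p of 0.000175. Of 8 elongation factor genes, Eef1g rose and Eef2k, the kinase that halts elongation factor 2, fell in both comparisons with control, and 0 were called between sulodexide and vehicle. With total counts 6 of the 8 rose in vehicle livers, 2 rose in sulodexide livers, and 0 fell in either. The rise of Eef1g in sulodexide livers was lost whichever of the 9 libraries was left out, at 0.27 to 0.36 on the log2 scale. The fall of Eef2k was lost with total counts, without control library 2 in both comparisons, without vehicle library 3 in vehicle livers and without sulodexide library 2 in sulodexide livers.

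On the list of 15 other TOP and ribosome-bound genes, 3 rose and 2 fell in vehicle livers, and 3 rose and 0 fell in sulodexide livers over control. With total counts 8 rose in vehicle livers, 7 rose in sulodexide livers, and 0 fell in either. The shares of all genes called higher in these comparisons were 23.1% and 11.2% with TMM, and 42% and 24.2% with total counts. With TMM 20.4% and 11.4% of all genes were called lower. Gnb2l1, the older name of Rack1, which sits on the small subunit, had 337, 321 and 343 CPM with sulodexide, 364, 343 and 353 CPM with vehicle, and 235, 286 and 299 CPM in control. It rose in vehicle livers by 0.37 on the log2 scale with an adjusted p of 0.0265, a call lost without vehicle library 1 or 3 or control library 1 or 2. It was not called in sulodexide livers, with 0.29 and an adjusted p of 0.105. Fau, which encodes a ubiquitin-like protein fused to a small subunit protein, had 116, 116 and 130 CPM with vehicle, against 88.5, 109 and 98.2 CPM in control, and an adjusted p of 0.133. Vim, a cytoskeletal gene of mesenchymal cells with a TOP mRNA, rose in both TAA groups over control, but in sulodexide livers not without sulodexide library 2 or 3 or control library 1 or 3.

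Of 30 regulators of mTORC1, MYC and TOP mRNAs, 2 rose and 7 fell in vehicle livers, and 2 rose and 5 fell in sulodexide livers over control. Over all genes, 23.1% were called higher and 20.4% lower in vehicle livers, and 11.2% and 11.4% in sulodexide livers. With total counts the balance turned in both comparisons, with 8 that rose and 2 that fell in vehicle livers, and 3 that rose and 2 that fell in sulodexide livers. Calls over all genes also shifted: in vehicle over control 53.1% of them were higher with TMM and 83.2% with total counts. Eif4ebp3, a repressor of cap-dependent initiation, had 81.1, 31.4 and 42.3 CPM with sulodexide, 6.12, 8.47 and 10.6 CPM with vehicle, and 115, 152 and 158 CPM in control. The 3 groups were apart, and it was higher with sulodexide than with vehicle by 2.62 on the log2 scale, with an adjusted p of 0.00872. Sesn2, a leucine sensor that restrains mTORC1, had 34.7, 32.9 and 27.4 CPM with sulodexide, 41.4, 48.4 and 48.1 CPM with vehicle, and 8.65, 7.92 and 8.40 CPM in control. It was lower with sulodexide than with vehicle, with a log2 change of -0.54 and an adjusted p of 0.0372, a call lost whichever of the 9 libraries was left out, with changes of -0.44 to -0.61. Deptor, a subunit that inhibits mTOR, fell and Akt1s1, another inhibitory subunit, rose in both comparisons with control.

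Markers of other cells differed between the groups, and their part in the results above was not tested. In vehicle over control 23.1% of all genes were called higher and 20.4% lower with TMM, and 42% higher with total counts. In vehicle over control, 8 of 8 cholangiocyte markers rose, with summed levels of 43.3 to 109.5 CPM with sulodexide, 210.6 to 509 CPM with vehicle and 33.8 to 48.7 CPM in control. Stellate cell and fibroblast markers rose in 7 of 8 cases, with sums of 319 to 349 CPM with sulodexide, 509.7 to 796.5 CPM with vehicle and 204 to 239 CPM in control. For both lists the vehicle libraries lay above all others. Macrophage and monocyte markers rose in 6 of 8 cases, with sums of 169.8 to 378.7 CPM with sulodexide, 170.1 to 294 CPM with vehicle and 109.6 to 135.9 CPM in control. All 6 markers of dividing cells rose, with sums of 10.2 to 23.4 CPM with sulodexide, 34.9 to 53.3 CPM with vehicle and 5.59 to 6.76 CPM in control. Neutrophil markers rose in 4 of 4 tested cases, T and NK cell markers in 6 of 8, B and plasma cell markers in 4 of 7, and endothelial markers in 1 of 8 with 1 that fell. Red blood cell markers fell in 1 of 5 cases, hepatocyte markers fell in 5 of 11, and mitochondrially encoded genes fell in 12 of 13. With total counts 3 hepatocyte markers rose and 4 fell, 4 endothelial markers rose and 0 fell, and 0 red blood cell markers were called. No marker was at 0 in every library. Between sulodexide and vehicle, 7 of 8 cholangiocyte, 4 of 8 stellate and 4 of 6 dividing-cell markers fell, where 3.41% of all genes were called lower.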

How the data were processed

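The authors deposited a raw count and an FPKM value for each gene in each of the 9 libraries, and both were taken unchanged. The submitters' processing notes list HISAT2 2.0.4, StringTie 1.3.0 and the builds mm10 and GRCm38.p4, with no order of steps. Neither the counting program nor any use of strand is stated there. The members and gene lists were chosen with earlier results of these data known.

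Analyses used R 4.3.3. All genes kept by filterByExpr of edgeR 4.0.16 (13701) were fitted over all 9 libraries with TMM factors and a mean for each group, and contrasts were tested by the quasi-likelihood method with robust estimation. A gene whose Benjamini-Hochberg adjusted p was below 0.05 is said to have risen or fallen. Levels in CPM are TMM-scaled, and those in FPKM are as deposited, scaled by total counts. The fit was tested on simulated counts with known changes. Alternatives were other scalings, DESeq2 1.42.0, limma 3.58.1 on quantile-normalized log2 CPM and on log2(FPKM + 0.1) and log2(FPKM + 1), no filter, only the compared groups, a replicate block, and each library left out. Intervals and SEs cover the spread between libraries. Transcript uniqueness was taken from GENCODE M21 transcripts, in which 58 of the 85 genes had the coordinates of the count table. The labels give no batch. For each comparison the text names the 6 largest called changes, a fixed set of genes, and up to 4 genes of each pathway list by p. Members named beyond these, Rpl10, Rpl12, Rpl24, Rpl5, Rpl7a, Rpl11 and the -ps genes among them, were chosen after their values were seen. Results for some members and list genes are not reported here.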

Additional observations from a re-analysis of the deposited data

How the results depend on the processing

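Of the 85 members, 61 were called higher in vehicle over control with total counts and 62 each with log2(FPKM + 0.1) and log2(FPKM + 1), with medians of 0.72, 0.71 and 0.61. In sulodexide over control these settings gave 38, 39 and 36 calls, with medians of 0.55 and 0.51 for the first pair. Over all genes, 42%, 42% and 41.2% were called higher in vehicle and 24.2%, 23.4% and 19.3% in sulodexide over control. In sulodexide over vehicle 2 members were lower with total counts and with both FPKM settings (Rps4l and Rpl24), and 1 with DESeq2 (Rps4l). The share of counts with mitochondrial genes left out was 1.33% with vehicle and 0.734% in control. The directions of Rpl22l1, Rpl7l1 and Rpl36al in vehicle over control turned positive with total counts (0.17, 0.13 and 0.24), log2(FPKM + 0.1) (0.16, 0.13 and 0.24) and log2(FPKM + 1) (0.099, 0.13 and 0.23), none called. Rpsa in sulodexide over vehicle turned negative with total counts (-0.12), upper-quartile (-0.0096), quantile (-0.24) and both FPKM settings (-0.14 and -0.14), never called. The cause was not tested.

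With libraries left out, calls in sulodexide over control ran from 10 (without control library 1) to 16, and its median from 0.082 (without sulodexide library 3) to 0.40. Without control library 1 the share of all genes called higher there was 7.15%, against 11.2% with all libraries. In vehicle over control 0 to 1 members were lower, the 1 being Rpl35a without vehicle library 3. The log2 change of Rps27l ran from -0.11 to 0.12 in vehicle over control, and in sulodexide over vehicle Rplp1 ran from -0.31 to 0.011 and Rpsa from -0.15 to 0.11. Log2 ratios of pairs crossed 0 for Rps27l over Rps27 (-0.00407 to 0.36) and Rps4l over Rps4x (-0.12 to 0.38) in vehicle over control, and for Rpl7l1 over Rpl7 (-0.15 to 0.018) in sulodexide over control.

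Libraries share replicate numbers that no label ties to an animal or batch. Same-numbered pairs had correlations of -0.07 to 0.142, 2 of 9 over 0.1, and 0 libraries were most like their own number. With the replicate block, 28 members were higher and 1 lower (Rpl35a) in vehicle over control, and 23 higher in sulodexide over control. Over all genes 22.1% and 10.6% were called higher in these 2 comparisons. Genes with few counts, such as Rps27 or Rpl9, are uncertain in level and change. Only 1.6% and 13% of their 100-base stretches were unique, and the source of their low counts was not tested.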
